A study of Oryza sativa with 36 samples.

Results

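The genes described here are 10 genes of jasmonate signalling in rice, namely 9 genes for JAZ (TIFY) repressors and OsMYC2 (Os10g0575000). They were taken by a list of RAP locus identifiers, and all 10 are among the 38978 genes counted. The JAZ genes are named by identifier throughout, because the sources used here do not tie single JAZ numbers to these identifiers.

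Jasmonate is a plant hormone best known for defence against chewing insects and for the response to wounding. In Arabidopsis, where the pathway was worked out, JAZ proteins bind the bHLH transcription factor MYC2 and recruit co-repressors, so that genes with MYC2 sites stay low. The active hormone, a conjugate of jasmonic acid and isoleucine, joins JAZ proteins to the receptor COI1, the JAZ proteins are degraded, and MYC2 is set free. Many JAZ genes are themselves targets of MYC2, so a rise of JAZ transcripts is a usual mark of jasmonate signalling and also renews the repressors.

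RNA was sequenced from leaf sheaths of 4 lines of indica rice at the 4-leaf stage. B14, B15 and B1415 are near-isogenic lines (NILs) that carry BPH14, BPH15 or both of these brown planthopper (BPH) resistance genes in the background of 'Wushansimiao', and RP is that recurrent parent. Each line was sampled non-infested (B14_0, B15_0, B1415_0 and RP_0), in an early stage of feeding that pooled seedlings infested for 3, 6 and 12 h, and in a late stage that pooled 24, 48 and 72 h. Each of the 12 groups had 3 biological replicates, each pooled from 15 seedlings, with 8 nymphs on every infested plant. Because of the pooling, the times within a stage cannot be told apart, and because each genotype is represented by a single line, the resistance gene cannot be told apart from other differences between a NIL and RP. In such bulk samples, fewer cells of a type and less RNA per cell cannot be told apart either.

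The libraries held 10601967 to 18692187 counted fragments, which is the depth behind every value. The 4 genes listed as markers of green tissue were high in every library (Os12g0274700 had 1830 to 6600 CPM), while the gene listed as a root marker, Os02g0662000, had 0 to 0.384 CPM. The gene listed as a seed marker, Os01g0762500, stood higher in infested plants, with group means of 0.0293 to 1.15 CPM without infestation, 0.956 to 6.99 CPM early and 9.37 to 19.1 CPM late. Of the 36 libraries, 7 were nearest to a library of another group. Judged by rank correlation over all genes, B14_0-3 resembled B14_early-2 most (0.972). Among late libraries, the one labelled B15_late-3 had its nearest match in B1415_late-2 (0.989), and the one labelled B1415_late-3 had its nearest match in B15_late-1 (0.988), and both matches were mutual. B14_early-3 and B15_early-1 were also nearest to each other (0.986). The non-infested B15 plants differed from RP_0 in 71.7% of genes. The summed CPM of the green tissue markers was 8620 to 10500 in B15_0 and 8500 to 11400 in B15_early, against 5380 to 5680 in RP_0 and 5690 to 6610 in RP_early, and it was 9260 at most in B14_0. In the late stage the sum was 3250 to 4650 in B14, 4840 to 6180 in B15, 5070 to 5970 in B1415 and 4950 to 5890 in RP. The part of these differences in the results below was not tested.

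All 10 genes were detected in all 36 libraries and passed the filter on low counts in all 27 fits. The lowest raw counts were 11 for Os03g0180800 and 15 for Os10g0391400, so that these JAZ genes carry the largest counting error. Levels are given as CPM, counts scaled to the TMM-adjusted library size, and were compared within a gene only, since no transcript lengths were used. Over the 12 group means, the ratio of the highest to the lowest was 10.0 for Os03g0180800, 5.93 for Os10g0391400, 4.72 for Os09g0439200, 4.19 for Os03g0180900 and 3.22 for Os10g0392400. It was 2.66 for Os03g0181100 and between 1.49 and 1.67 for Os03g0402800, Os07g0615200, Os04g0653000 and OsMYC2. The family thus held strongly varying genes beside genes of nearly even level, with OsMYC2 among the even ones.

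**Figure D1:**
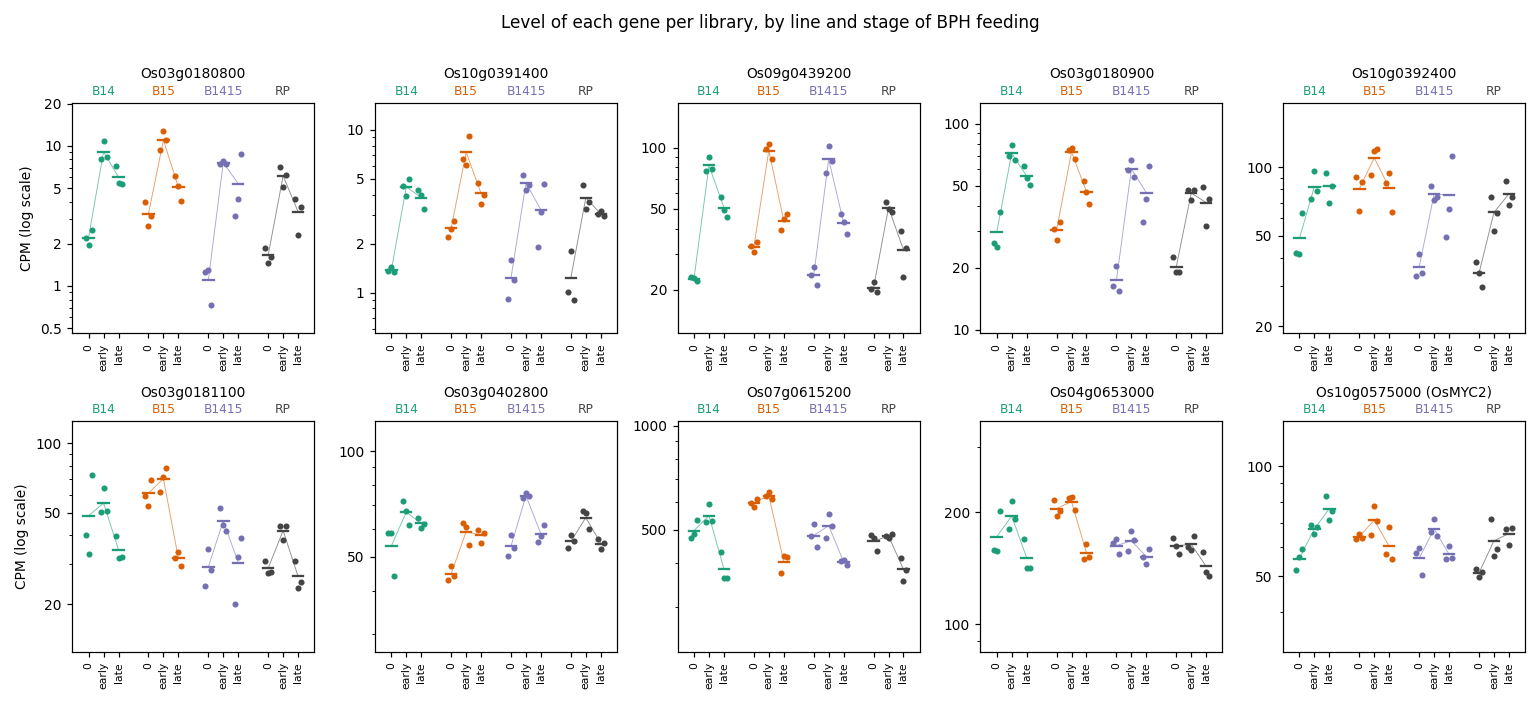
Level of each of the 10 genes in every library, in CPM on a log scale, for B14, B15, B1415 and RP, each without infestation (0) and in the early and late stage. Points are libraries and bars are group means (n = 3). In the panels of Os03g0180800, Os10g0391400, Os09g0439200 and Os03g0180900 all early libraries lie above the non-infested ones of the same line.

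Early feeding raised a set of JAZ genes in every line. Os03g0180800, Os03g0180900, Os09g0439200 and Os10g0391400 rose in all 4 lines, by 2.31-fold to 6.96-fold, and in each line every early library lay above every non-infested library. With the quasi-likelihood test of edgeR and a Benjamini-Hochberg adjusted p below 0.05 taken as the limit, 4 of the 10 genes rose in B14 (1.22% of all genes tested rose), 6 in B15 (11.5%), 8 in B1415 (13.9%) and 8 in RP (21.3%). None of the 10 fell in B14 (0.327% of all genes fell), B15 (12.4%), B1415 (13.1%) or RP (21.7%). The median log2 fold change of the 10 genes was 0.55 in B14, 0.43 in B15, 0.89 in B1415 and 0.73 in RP, beside -0.03, 0.01, 0.01 and 0 for all genes in the same order of lines.

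Os09g0439200 had no overlap between the early and the non-infested libraries of any line. It had 76.6, 90.1 and 78.7 CPM in B14_early, against 23.1, 22.9 and 22.2 CPM in B14_0. In B15 the values were 98.8, 104 and 87.9 CPM early and 32.7, 30.7 and 34.3 CPM in non-infested plants. B1415_early had 75.3, 102 and 86.1 CPM, against 23.8, 25.8 and 21.1 CPM in B1415_0. In RP the early level was lower than in any NIL library, with 53.9, 50.1 and 48.1 CPM in RP_early and 20.2, 21.8 and 19.6 CPM in RP_0. The log2 fold changes were 1.86 ± 0.07 (SE from the spread of 3 replicates per group) in B14, 1.57 ± 0.08 in B15, 1.92 ± 0.15 in B1415 and 1.32 ± 0.06 in RP. By edgeR, the adjusted p was 0.00138 in B14 and no higher than 3.04e-08 in the other lines.

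Os03g0180800, Os03g0180900 and Os03g0181100 follow one another directly in the locus order of the table, and they did not move alike. Os03g0180800, the gene with the widest range, had 7.43, 7.85 and 7.48 CPM in B1415_early, against 1.26, 1.29 and 0.736 CPM in B1415_0, a log2 fold change of 2.80 ± 0.18 (edgeR, adjusted p 1.33e-07). The corresponding values were 7.01, 5.10 and 6.21 CPM in RP_early and 1.88, 1.47 and 1.62 CPM in RP_0 (1.89 ± 0.15, adjusted p 7.61e-08 by edgeR). Its rise was 2.05 ± 0.16 in B14 and 1.76 ± 0.19 in B15 on the log2 scale. Os03g0180900 moved nearly in parallel at a higher count, with 59.5, 66.4 and 54.9 CPM in B1415_early against 16.3, 20.4 and 15.4 CPM in B1415_0. For this gene RP_early had 47.8, 42.6 and 47.8 CPM and RP_0 had 22.5, 19.1 and 19.0 CPM. Its log2 fold changes were 1.28 in B14, 1.26 in B15, 1.82 in B1415 and 1.21 in RP. Os03g0181100, the third of these genes, rose in B1415 (0.70 ± 0.18) and RP (0.56 ± 0.09), and its values of 0.19 ± 0.36 in B14 and 0.21 ± 0.15 in B15 did not pass (edgeR, adjusted p 0.842 and 0.192). The B14 value passed without B14_0-3, and a difference of these changes from that in RP did not pass (B14 -0.32, adjusted p 0.999, and B15 -0.38, adjusted p 0.146, by edgeR). Reads of such neighbouring genes can be shared if their sequences are close, and how the counting treated them is not given in the sources used here.

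The same holds for Os10g0391400 and Os10g0392400, which lie close together in the table. Os10g0391400 had low counts and rose in every line, with 4.50, 3.91 and 4.96 CPM in B14_early against 1.35, 1.43 and 1.33 CPM in B14_0, and with 6.61, 6.12 and 9.18 CPM in B15_early against 2.20, 2.47 and 2.77 CPM in B15_0. B1415_early had 5.29, 4.25 and 4.60 CPM against 0.917, 1.58 and 1.20 CPM in B1415_0, and RP_early had 4.57, 3.28 and 3.62 CPM against 1.01, 1.79 and 0.900 CPM in RP_0. Its log2 fold changes lay between 1.55 and 1.97. Os10g0392400 rose in B15 (0.46 ± 0.20), B1415 (1.09 ± 0.12) and RP (0.90 ± 0.17), and in B14 its 0.77 ± 0.23 did not pass (edgeR, adjusted p 0.159) although no library of the B14 groups overlapped. The B15 call was lost without B15_early-2 or B15_early-3. Within B14_0 the library B14_0-3 was high, with 62.9 CPM beside 41.9 and 41.4 CPM in the other B14_0 libraries.

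The remaining JAZ genes changed little or not detectably in the early stage. Os03g0402800 rose in B15 (0.40 ± 0.08), B1415 (0.50 ± 0.06) and RP (0.24 ± 0.06). In B1415 it had 73.3, 76.1 and 74.4 CPM early, against 50.3, 57.5 and 52.9 CPM in non-infested plants. Os07g0615200 and Os04g0653000 passed in no line, with log2 fold changes between 0.06 and 0.16 and between 0.03 and 0.20. These genes stood at 473 to 644 CPM and 157 to 220 CPM in the early libraries, so that their precision was not limited by depth.

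OsMYC2 itself, the transcription factor that the JAZ proteins hold back, changed by 0.15 to 0.30 on the log2 scale, less than the 4 JAZ genes that rose in every line and more than Os04g0653000 or Os07g0615200 in each line, though this difference between genes was not tested. It had 69.1, 65.1 and 68.0 CPM in B14_early, against 52.1, 56.3 and 59.3 CPM in B14_0. In B15 it had 64.9, 77.8 and 70.8 CPM early and 63.4, 65.2 and 63.8 CPM in non-infested plants, and these groups overlapped. B1415_early had 65.9, 71.5 and 64.6 CPM, against 57.9, 59.6 and 50.4 CPM in B1415_0. RP_early had 71.5, 56.8 and 59.2 CPM, against 52.3, 49.8 and 51.2 CPM in RP_0. The rise passed in B1415 (0.29 ± 0.09, edgeR, adjusted p 0.0202) and in RP (0.30 ± 0.10, adjusted p 0.00379), and it did not in B14 (0.29 ± 0.06, adjusted p 0.324) or B15 (0.15 ± 0.08, adjusted p 0.260). The call in RP was lost without RP_early-1 (0.20, adjusted p 0.0601), and that in B1415 was lost when any of 4 of its 6 libraries was left out (0.22 to 0.30).

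The B14 results of the early stage depended on its non-infested group. The calls of Os03g0180800, Os03g0180900 and Os10g0391400 were lost when any 1 library other than B14_0-3 was left out (edgeR, adjusted p 0.0654 to 0.186), while their log2 fold changes stayed between 1.17 and 2.13. Without B14_0-3, 8 of the 10 genes rose in B14, and 6676 of all genes were called, against 370 with it. With replicate number as a block, the same 3 calls were lost as well (adjusted p 0.0654 to 0.108).

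**Figure D2:**
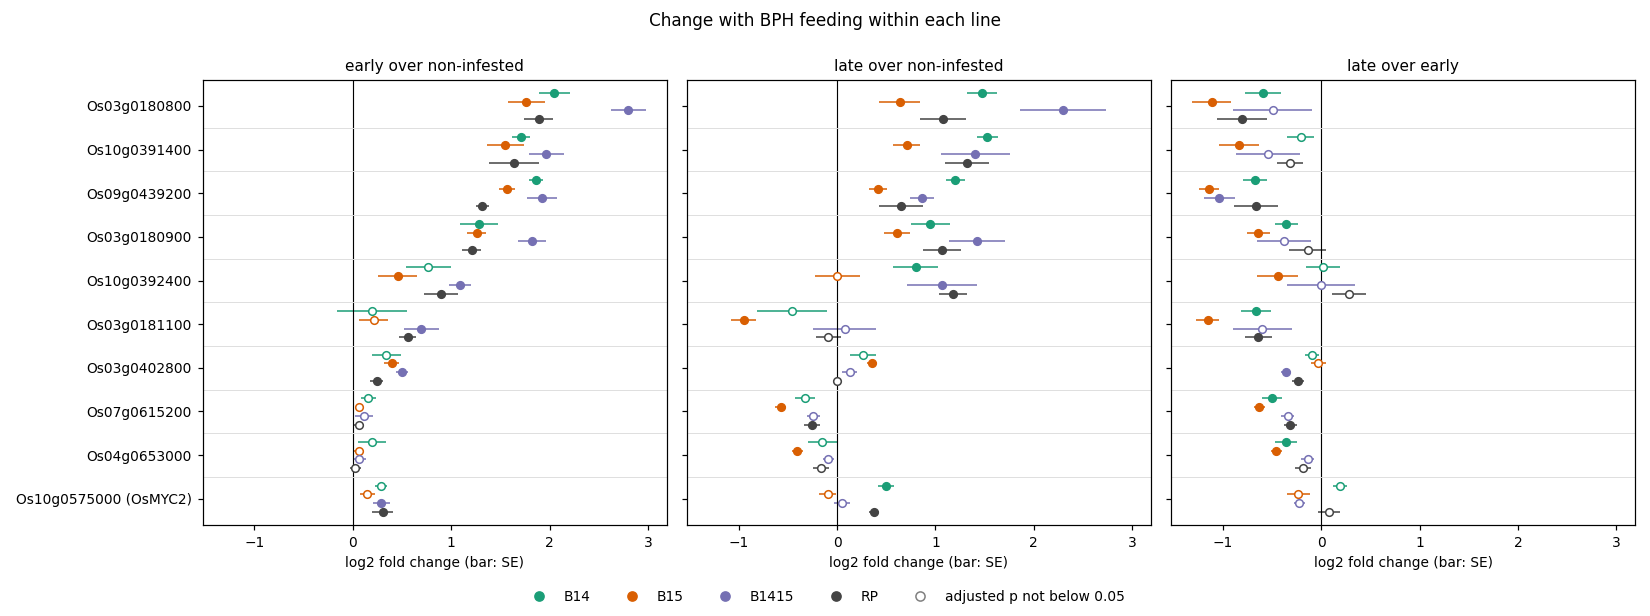
Log2 fold change with BPH feeding for each gene and line, early over non-infested (left), late over non-infested (middle) and late over early (right). Filled points passed an adjusted p below 0.05 by edgeR, and bars are standard errors from the spread of 3 replicates per group. The upper 4 genes are filled in all lines in the left and middle panels.

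In the late stage the same 4 JAZ genes were still above the non-infested plants in every line, while 3 JAZ genes of more even level were lower in B15. With RP_0 in place of B15_0 as the baseline, these 3 genes were not lower in B15_late. In B14, 6 of the 10 genes were higher (20.5% of all genes rose) and none was lower (20.5% fell). B15 had 5 higher (31.6%) and 3 lower (30.3%), B1415 had 5 higher and none lower (18.6% each way), and RP had 6 higher (29.4%) and 1 lower (29.9%). The counts of lower genes in B15 and RP were thus no larger than the background. In a single fit of all 36 libraries, 2 of the 10 genes were lower in B14 and 1 in B1415. In that fit 15605 and 10245 of 26455 genes passed in either direction in these lines. The late and early comparisons of a line share the non-infested libraries, so they are set side by side and not counted as separate support.

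Os09g0439200 had 57.5, 49.2 and 45.6 CPM in B14_late, 39.3, 44.8 and 47.0 CPM in B15_late, 47.1, 43.1 and 37.8 CPM in B1415_late and 39.1, 23.2 and 32.2 CPM in RP_late. Each of these values lay above every non-infested library of its line. The log2 fold changes over the non-infested plants were 1.20 ± 0.10, 0.42 ± 0.09, 0.87 ± 0.12 and 0.65 ± 0.22 in this order. Os03g0180900 had 62.4, 54.6 and 50.1 CPM in B14_late, 52.4, 46.6 and 40.8 CPM in B15_late, 33.2, 43.3 and 62.2 CPM in B1415_late and 49.0, 32.0 and 43.1 CPM in RP_late, with log2 fold changes from 0.61 in B15 to 1.42 in B1415. The highest B1415_late value came from the library labelled B1415_late-3.

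For Os03g0180800 the late rise was 2.29 ± 0.44 in B1415, 1.47 ± 0.16 in B14, 1.08 ± 0.23 in RP and 0.64 ± 0.21 in B15 on the log2 scale. In B1415_late it had 3.17, 4.18 and 8.79 CPM, the last again in the library labelled B1415_late-3. The B15 call (edgeR, adjusted p 0.0366) was lost under DESeq2 (0.0590) and when any of 4 libraries was left out (edgeR, 0.0675 to 0.149). Os10g0391400 rose by 1.53 in B14, 0.71 in B15, 1.41 in B1415 and 1.32 in RP, and its B15 call was lost without any of 3 libraries.

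Os10g0392400 and OsMYC2 passed late in part of the lines. Os10g0392400 had 94.8, 70.0 and 83.0 CPM in B14_late and 86.8, 68.2 and 74.3 CPM in RP_late, log2 fold changes of 0.80 ± 0.23 and 1.18 ± 0.14, and the B14 call was lost when any of 4 libraries was left out (edgeR, adjusted p 0.0705 to 0.0766). It rose in B1415 as well (1.07 ± 0.36), where its late values of 49.6, 65.9 and 112 CPM were spread widely. In B15 it had 85.2, 94.6 and 63.6 CPM late, against 90.5, 64.0 and 86.5 CPM in B15_0, and the groups overlapped (0.00 ± 0.23). OsMYC2 had 83.0, 71.4 and 75.2 CPM in B14_late (0.50 ± 0.08, edgeR, adjusted p 0.0178) and 67.5, 61.0 and 67.8 CPM in RP_late (0.38 ± 0.05, adjusted p 0.000115). Its log2 fold changes of -0.10 ± 0.09 in B15 and 0.05 ± 0.08 in B1415 did not pass. The RP call of OsMYC2 held without any single library, whereas the B14 call was lost without any 1 library other than B14_0-3 (edgeR, adjusted p 0.0555 to 0.0723).

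Among the JAZ genes that hardly moved early, Os07g0615200 fell late in B15 (-0.57 ± 0.06) and in RP (-0.25 ± 0.08). It had 375, 421 and 417 CPM in B15_late, against 599, 583 and 613 CPM in B15_0. In RP it had 414, 356 and 382 CPM late and 484, 473 and 434 CPM in non-infested plants. Its values of -0.33 in B14 and -0.24 in B1415 did not pass, although in all 4 lines the late libraries were below the non-infested ones without overlap. In B15, Os03g0181100 (-0.95 ± 0.12) and Os04g0653000 (-0.40 ± 0.06) fell as well, and Os03g0402800 rose (0.36 ± 0.05), and these genes passed in no other line. The 3 falls in B15 started from raised levels. Mean CPM in B15_0 and RP_0 was 598 and 463 for Os07g0615200, 60.7 and 28.7 for Os03g0181100, and 204 and 163 for Os04g0653000. With RP_0 in place of B15_0 as the baseline, none of the 10 genes was lower in B15_late and 5 were higher (11618 of 24182 genes passed in either direction). For Os04g0653000 the RP value was -0.16 ± 0.08 (edgeR, adjusted p 0.0539), which passed when either of 2 libraries was left out, and its change in B15 was not shown to differ from that in RP (-0.26, adjusted p 0.0750). Beside these falls, the summed CPM of the green tissue markers was 4840 to 6180 in B15_late and 8620 to 10500 in B15_0, and 4950 to 5890 in RP_late and 5380 to 5680 in RP_0, and its part in them was not tested.

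Between the early and the late stage, part of the JAZ genes declined. The numbers of the 10 genes that were lower were 6 in B14 (26.1% of all genes fell), 8 in B15 (21.2%), 2 in B1415 (2.97%) and 5 in RP (14.2%). None was higher, where 25.2%, 21.9%, 2.23% and 14.3% of all genes were in the same order of lines. Os09g0439200 fell in all 4 lines, with log2 fold changes of -0.68 ± 0.12 in B14, -1.14 ± 0.10 in B15, -1.04 ± 0.16 in B1415 and -0.66 ± 0.22 in RP. Set against the early rise in mean CPM, 47.4% of it was left late in B14, 17.3% in B15, 29.7% in B1415 and 36.4% in RP. Os03g0180800 fell in B14, B15 and RP, and Os03g0181100 fell in the same lines by 0.64 to 1.15 on the log2 scale. Os07g0615200 fell in B14 (-0.50), B15 (-0.63) and RP (-0.31), and its -0.34 in B1415 did not pass (edgeR, adjusted p 0.0609). In all 4 lines its late libraries lay below the early ones without overlap. Os03g0180900 and Os04g0653000 passed in B14 and B15, and Os03g0402800 passed in B1415 and RP. Os10g0391400 (-0.83 ± 0.20) and Os10g0392400 (-0.44 ± 0.21) passed in B15 and in no other line, and Os10g0392400 had 0.28 ± 0.17 in RP (edgeR, adjusted p 0.0559). OsMYC2 passed in no line (-0.24 to 0.19). The B1415 count rested on single libraries: without the library labelled B1415_late-3 it was 8, and it was 0 without B1415_early-2 or B1415_early-3 and 1 without any other. The B14 count was 3 without B14_early-2, B14_late-2 or B14_late-3.

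The NILs were next compared with RP at each stage, which asks whether the resistance lines held other levels of these genes than their susceptible parent. Within a stage the 3 NILs were set against one and the same group of RP libraries, so a deviation of RP enters every one of these comparisons. Before feeding, none of the 10 genes passed in B14_0/RP_0 (0.0636% of all genes were higher and 0.0297% lower) or in B1415_0/RP_0 (3.93% and 2.88%) by edgeR. Without adjustment, 3 genes in B14 and 0 in B1415 had a p below 0.05, and DESeq2 called none in either. A single fit of all 36 libraries called 2 of the 10 genes higher in B14, where 3324 of 26455 genes passed. Without B14_0-3, 3 genes passed in B14. In B15_0/RP_0 all 10 passed (71.7% of all genes passed). Of the 10, 9 were higher (35.7% of all genes were) and 1, Os03g0402800, was lower (8608 of 23887 genes were).

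In the B15_0 plants 8 of the 9 JAZ genes described here were thus above RP_0 without any insect. This did not extend to the 3 further JAZ loci tested, of which 0 were higher and 2 lower (median log2 fold change -0.32). Os10g0392400 had 90.5, 64.0 and 86.5 CPM in B15_0, against 38.3, 34.5 and 29.9 CPM in RP_0, a log2 fold change of 1.22 ± 0.19 (edgeR, adjusted p 4.45e-08). Os03g0181100 had 59.4, 53.3 and 69.4 CPM in B15_0 and 31.0, 27.5 and 27.7 CPM in RP_0 (1.07 ± 0.12, adjusted p 3.09e-08). Both were more than 2-fold higher and without overlap. Os10g0391400 (1.00), Os03g0180800 (0.95), Os09g0439200 (0.66), Os03g0180900 (0.58), Os07g0615200 (0.36), Os04g0653000 (0.32) and OsMYC2 (0.32) were higher by less. Os03g0402800 went the other way, with 42.9, 47.0 and 44.0 CPM in B15_0 and 52.9, 57.5 and 55.3 CPM in RP_0 (-0.32 ± 0.05). The library B14_0-3 shared part of this, with 72.6 CPM of Os03g0181100 and 44.1 CPM of Os03g0402800, beside 40.1 and 33.1 CPM and 58.3 and 58.3 CPM in the other B14_0 libraries.

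**Figure D3:**
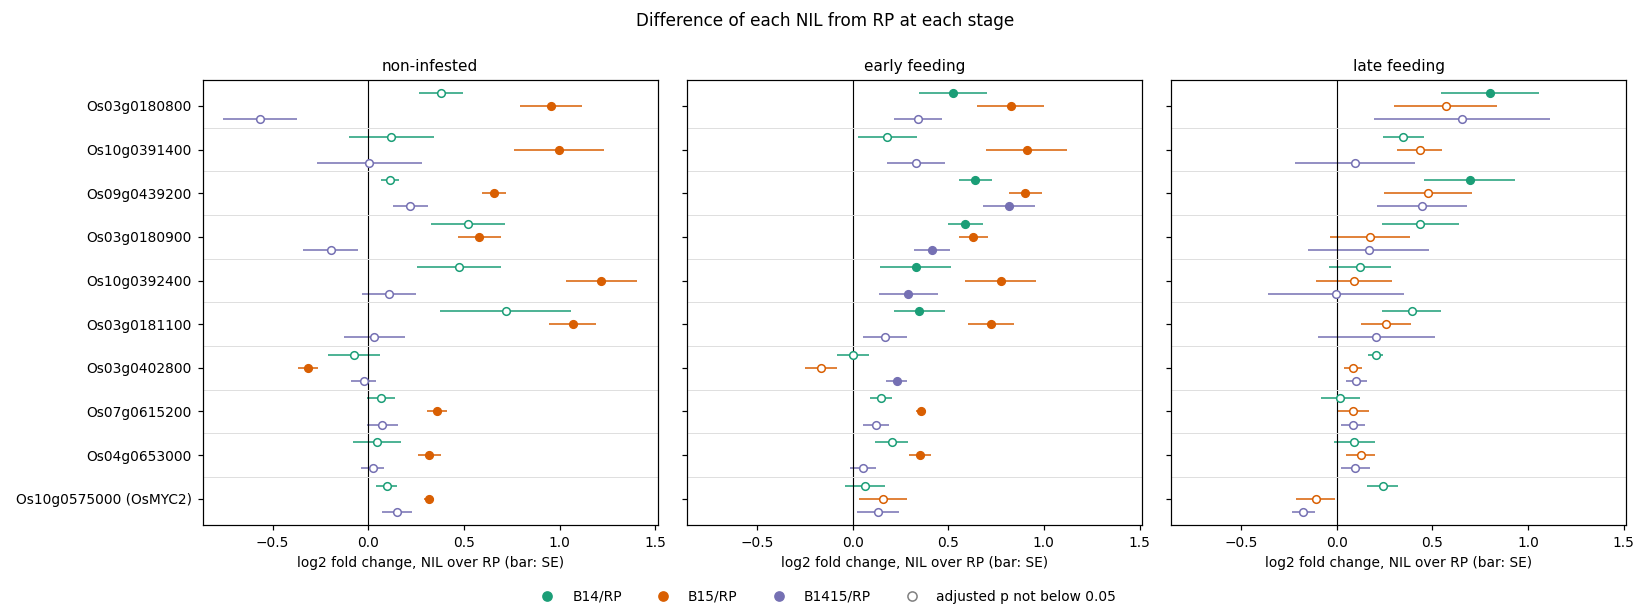
Log2 fold change of each NIL over RP for each gene, in non-infested plants (left) and at the early (middle) and late (right) stages of feeding. Filled points passed an adjusted p below 0.05 by edgeR, and bars are standard errors from 3 replicates per group. Os09g0439200 and Os03g0180900 are filled for all 3 NILs in the middle panel.

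At the early stage Os09g0439200 was higher than in RP in each NIL, and other genes were in part. The number of the 10 genes that were higher was 5 in B14 (16.8% of all genes were higher), 8 in B15 (28.7%) and 4 in B1415 (9.31%). The B14 count was 2 without B14_early-2 or RP_early-2 and 3 without RP_early-3, and the B1415 count was 2 without B1415_early-3 or RP_early-3. None was lower, where 19.8%, 29.7% and 9.30% of all genes were. Os09g0439200 (0.64 ± 0.09 in B14, 0.90 ± 0.08 in B15 and 0.82 ± 0.14 in B1415), Os03g0180900 (0.59 ± 0.09, 0.63 ± 0.08 and 0.42 ± 0.10) and Os10g0392400 (0.33 ± 0.18, 0.77 ± 0.19 and 0.29 ± 0.15) were higher in all 3 NILs. For Os09g0439200 the NIL libraries held 75.3 to 104 CPM and the RP libraries 48.1 to 53.9 CPM. For Os03g0180900 they held 54.9 to 78.9 CPM and 42.6 to 47.8 CPM, so neither gene overlapped. The groups of Os10g0392400 overlapped in B14 and B1415, and its calls there were each lost when any of 4 libraries was left out.

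Further genes were higher in part of the NILs. Os03g0180800 passed in B14 (0.53 ± 0.18) and B15 (0.83 ± 0.17), Os03g0181100 in B14 (0.35 ± 0.13) and B15 (0.72 ± 0.12), and Os03g0402800 in B1415 (0.23 ± 0.06). Os10g0391400 (0.91 ± 0.21), Os07g0615200 (0.36 ± 0.02) and Os04g0653000 (0.35 ± 0.06) passed in B15. OsMYC2 passed in no NIL, with log2 fold changes of 0.06 ± 0.10 in B14, 0.16 ± 0.13 in B15 and 0.13 ± 0.11 in B1415. No difference at this stage reached 2-fold. A single fit of all 36 libraries called 2 genes in B14 (Os09g0439200 and Os03g0180900), 8 in B15 and 1 in B1415 (Os09g0439200). In that fit Os03g0180900 no longer passed in B1415 (0.39, edgeR, adjusted p 0.217), and Os10g0392400 no longer passed in B14 (0.38, adjusted p 0.190) or B1415 (0.27, adjusted p 0.568).

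At the late stage fewer genes passed, although some log2 fold changes were as large as early. In B14 the genes above RP were Os09g0439200 (57.5, 49.2 and 45.6 CPM in B14_late, 39.1, 23.2 and 32.2 CPM in RP_late, 0.69 ± 0.24, edgeR, adjusted p 0.0182) and Os03g0180800 (7.21, 5.40 and 5.35 CPM in B14_late, 4.17, 2.32 and 3.67 CPM in RP_late, 0.80 ± 0.26, adjusted p 0.0484). In this comparison 5.98% of all genes were higher and 4.62% lower. The call of Os03g0180800 was lost without any one of the 6 libraries (adjusted p 0.0517 to 0.166), and that of Os09g0439200 without RP_late-2 (0.52) or RP_late-3 (0.71). This was the one comparison in which every pair of like-numbered libraries deviated together (correlations of 0.282, 0.105 and 0.188). With replicate number as a block, 5 of the 10 genes passed in it, adding Os03g0180900 (0.45, edgeR, adjusted p 0.0078), Os03g0181100 (0.40, adjusted p 0.00791) and OsMYC2, Os10g0575000 (0.24, adjusted p 0.0397). None passed by edgeR in B15_late/RP_late (0.496% of all genes higher, 0.217% lower) or B1415_late/RP_late (0.0124% and 0.0248%), where 2 and 1 had an unadjusted p below 0.05 and DESeq2 also called none. The values of Os09g0439200 there were 0.48 ± 0.23 and 0.45 ± 0.23, and those of Os03g0180800 were 0.57 ± 0.27 and 0.65 ± 0.46. Without the library labelled B1415_late-3, Os09g0439200 was higher (0.52) and Os10g0392400 lower (-0.39) in B1415 than in RP.

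The interaction of line and stage tests whether a NIL changed more or less with feeding than RP did. At the early stage none of the 10 genes passed by edgeR in B14 (0.0121% of all genes passed), B15 (4.50%) or B1415 (0.646%), with 1, 2 and 4 at an unadjusted p below 0.05. The lowest adjusted p were in B1415, where the rise exceeded that in RP by 0.60 ± 0.17 for Os03g0180900 (edgeR, adjusted p 0.0599) and by 0.59 ± 0.16 for Os09g0439200 (adjusted p 0.0562). DESeq2 called both (0.61 and 0.60, adjusted p 0.0158 and 0.0167) and no other. Os03g0180800 had 0.90 ± 0.23 in B1415 with an adjusted p of 0.213 by edgeR. The early difference of Os09g0439200 between NILs and RP was therefore not shown to be a difference in response by the edgeR test.

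At the late stage 5 genes passed, all in B15, where 22.5% of all genes passed upward and 23.8% downward. The change in B15 was lower than in RP for Os10g0392400 (-1.20 ± 0.27), Os03g0181100 (-0.88 ± 0.18), OsMYC2 (-0.49 ± 0.10) and Os07g0615200 (-0.34 ± 0.10), and higher for Os03g0402800 (0.34 ± 0.07). As given above, the B15_0 level of each of these genes differed from RP_0, and none passed between B15_late and RP_late. With RP_0 in place of B15_0 as the baseline, Os10g0392400 was higher in B15_late (1.25, edgeR, adjusted p 3.28e-05), Os03g0181100 had 0.15 (adjusted p 0.254), and OsMYC2, Os10g0575000, had 0.25 (adjusted p 0.0518). In B14 (0.238% of all genes passed) and B1415 (0.0279%) none of the genes passed at the late stage by edgeR or DESeq2, with 1 and 2 at an unadjusted p below 0.05 in edgeR.

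The study defined a DEG by an unadjusted p below 0.05 with more than a 2-fold change. Under this definition 17 of the 40 pairs of a gene and a line passed at the early stage (4.34% over all genes), 11 at the late stage (21.1%) and 4 between late and early (9.23%). Of the 30 pairs of a gene and a NIL, 2 passed against RP before feeding (9.98%), 0 at the early stage (8.04%), 0 at the late stage (3.55%) and 2 in the late interaction (9.02%). The DEG calls of the early stage were all upward.

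Over the 12 group means of log2(CPM + 1), the genes fell into patterns. The members were chosen with earlier results of these data known, so these patterns cannot be taken as independent of that choice. The following correlations describe groups that share lines and libraries, and no test was made. Among the 45 pairs, Pearson's r ranged from -0.13 to 0.98 with a median of 0.56. Os03g0180800, Os03g0180900, Os09g0439200 and Os10g0391400 were all alike (0.92 to 0.98), and Os10g0392400 was close to them (0.79 to 0.91). Os07g0615200, Os04g0653000 and Os03g0181100 formed another set (0.88 to 0.96). Os03g0402800 was apart by Pearson's r, at -0.13 with Os04g0653000 and at most 0.71, with Os09g0439200. By Spearman's rank correlation it had 0.77 to 0.83 with Os03g0180800, Os03g0180900, Os09g0439200 and Os10g0391400. Os10g0392400 had 0.71 to 0.81 with these genes by that measure, so Os03g0402800 was apart from them by Pearson's r only. OsMYC2 was by Pearson's r most like Os10g0392400 (0.83) and least like Os07g0615200 (0.12).

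**Figure D4:**
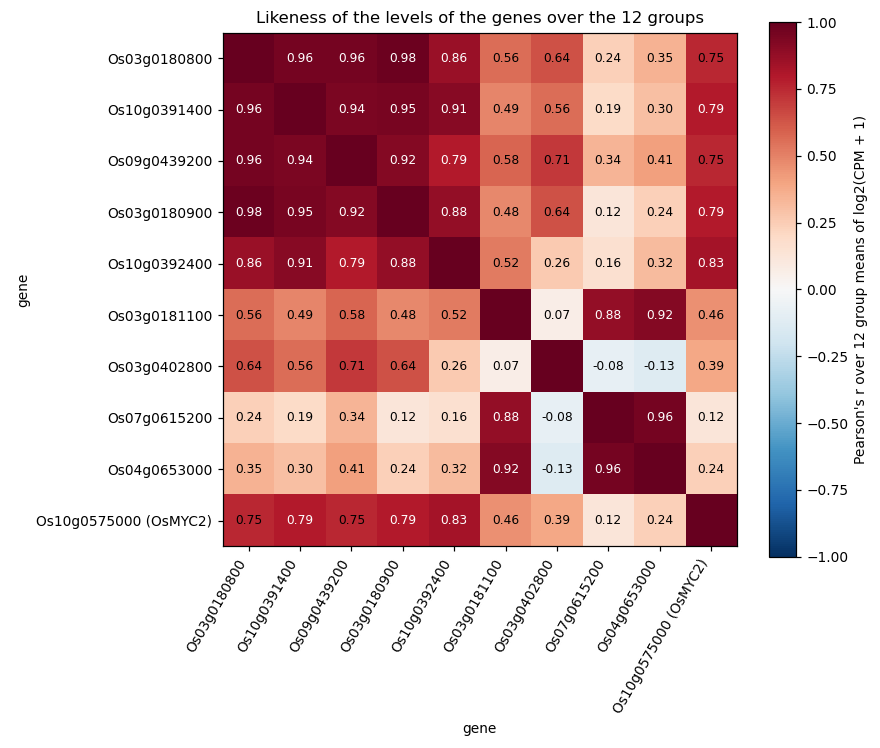
Pearson's r between the levels of each pair of genes over the 12 group means of log2(CPM + 1), on a colour scale from -1 to 1. The upper left block holds Os03g0180800, Os10g0391400, Os09g0439200, Os03g0180900 and Os10g0392400, with values of 0.79 to 0.98. Os03g0181100, Os07g0615200 and Os04g0653000 share values of 0.88 to 0.96.

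The order of the OsMYC2 group means ran from 76.5 ± 5.91 CPM in B14_late (SD, n = 3) through 71.2 ± 6.45 CPM in B15_early to 51.1 ± 1.24 CPM in RP_0. Of the 11 steps between neighbours in this order, only that from B14_0 (55.9 ± 3.57 CPM) to RP_0 was larger than the SD of both groups. Among 22815 genes with a mean of at least 1 CPM, the genes closest to the OsMYC2 pattern were Os09g0464000 (0.947), Os07g0225300 (0.944) and Os01g0699500 (0.926). For Os07g0615200, the JAZ gene of highest count, they were Os01g0834900 (0.988), Os09g0507100 (0.981) and Os05g0382600 (0.979).

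Other genes of the pathway were counted from lists whose roles could not be checked in the annotation used here. Of 6 further JAZ loci, 3 could be tested. Of these 1, Os04g0395800, rose in all 8 comparisons of a feeding stage with non-infested plants, where 1.22% to 31.6% of all genes rose. It had 6.69 to 7.03 CPM in B15_early and 0.800 to 1.55 CPM in B15_0, a log2 fold change of 2.48 ± 0.20. Os08g0428400 and Os09g0401300, also tested, had mean early log2 fold changes of 0.14 and -0.01 over the 4 lines. In the late stage 1 of the 3 loci was lower in B1415 (18.6% of all genes fell) and 1 in RP (29.9%). Against RP_0, 2 of the 3 loci were lower in B15_0 (8608 of 23887 genes were) and 0 were higher. Against RP_early, 1 was higher in B14_early (16.8% of all genes were) and none was lower (19.8%). In B15_early 1 was higher (28.7%) and 1 lower (29.7%), and in B1415_early none passed. Of 9 receptor, adaptor and co-repressor genes, 0 rose early in B14 (1.22% of all genes did), 3 in B15 (11.5%), 1 in B1415 (13.9%) and 4 in RP (21.3%). In the same order 0, 1, 1 and 2 of these 9 genes fell (0.327%, 12.4%, 13.1% and 21.7% of all genes did). Their median log2 fold change was -0.05, 0.16, -0.02 and 0.11 in this order, beside -0.03, 0.01, 0.01 and 0 for all genes. Against RP_early, 5 of the 9 were lower in B14_early (19.8% of all genes were), 6 in B15_early (29.7%) and 2 in B1415_early (9.30%). In the same order 1, 1 and 0 were higher (16.8%, 28.7% and 9.31%).

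Genes of jasmonate synthesis, conjugation and turnover rose early in part. Of 10, 1 rose in B14 (1.22% of all genes did) and 7 rose in each of B15 (11.5%), B1415 (13.9%) and RP (21.3%). None fell, where 0.327%, 12.4%, 13.1% and 21.7% of all genes did in this order of lines. Late over non-infested, 5 were higher in each of B14 (20.5% of all genes were), B15 (31.6%) and B1415 (18.6%) and 7 in RP (29.4%). In the same order of lines 0, 3, 1 and 2 were lower late, beside 20.5%, 30.3%, 18.6% and 29.9% of all genes. These counts of lower genes were no larger than the background. OsLOX11 (Os12g0559200), a lipoxygenase, had 136 to 141 CPM in B14_early against 56.7 to 62.6 CPM in B14_0, and it rose in all 4 lines, by 0.72 in RP to 1.32 in B1415 on the log2 scale. OsJAR2 (Os01g0221100), of the family that joins jasmonic acid to isoleucine, rose early in B15 (0.63), B1415 (0.88) and RP (1.03), and in B14 its 0.90 ± 0.42 did not pass. In the late stage it was higher in all 4 lines, with 52.5 to 58.6 CPM in RP_late and 17.6 to 21.5 CPM in RP_0 (1.53). All 3 jasmonate-responsive regulators on the list rose in all 8 comparisons, where 1.22% to 31.6% of all genes rose. OsbHLH148 (Os03g0741100), a bHLH transcription factor, rose early by 1.03 in B14, 1.18 in B15, 1.36 in B1415 and 1.15 in RP. The lists were chosen with earlier results of these data known and are counts beside the background given above.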

How the data were processed

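The authors deposited gene counts of the 36 leaf sheath libraries, not normalized. According to the methods, adapters and low-quality reads were removed, reads were aligned with Hisat2 (HISAT2 2.0.4 in the submitters' processing notes) to IRGSP-1.0 and counted with HTseq. The HTseq version, strand setting and annotation release are not given in the sources used here. The labels and the methods differ in library kit, sequencer and one infestation time.

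The counts were tested with edgeR 4.0.16 (limma 3.58.1, R 4.3.3). Each of 21 pairwise comparisons was a fit of its own 6 libraries (filterByExpr, minimum count 10, TMM, quasi-likelihood test), and each of 6 interactions used 12 libraries. P-values were Benjamini-Hochberg adjusted over all genes tested, and a gene was called below 0.05. This replaces the study's DEG definition (unadjusted p below 0.05, more than 2-fold), which was an alternative. SE came from the replicates' log2(CPM + 0.5), while the log2 fold changes came from edgeR. The added 0.5 narrows the spread at low CPM, so the SE of Os03g0180800 and Os10g0391400 are smaller than they would be without it. Correlations of like-numbered deviations ranged from -0.582 to 0.366 and all exceeded 0.1 in 1 of the 21 comparisons, B14_late/RP_late, for which the blocked values are given. The numbers did not pair the libraries of the others. Other alternatives were DESeq2 1.42.0, its size factors, no filter, a replicate block, a single fit, RP_0 as baseline and libraries left out. The procedure was tested on simulated data in which 200 genes were changed by a log2 fold change of 2. For B1415_early/RP_early 96% of them were recovered, with 16 false calls. For the late interaction of B15 it was 81%, with 12 false calls. Smaller changes were not simulated.

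All 10 members are named. From each list, up to 4 genes with the largest mean early change could be named. Members and lists were chosen with earlier results of these data known.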

Additional observations from a re-analysis of the deposited data

Results flagged for a closer look

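The change from non-infested plants to late feeding differed between B15 and RP in 5 of the 10 genes, by edgeR's test of the interaction with Benjamini-Hochberg adjustment. In this interaction 46.4% of all genes tested passed, so the count of 5 is near the background. The difference of the log2 fold changes (B15 minus RP) was -1.20 for Os10g0392400 (adjusted p 0.000224), -0.88 for Os03g0181100 (adjusted p 0.000405), -0.49 for OsMYC2, Os10g0575000 (adjusted p 0.00344), -0.34 for Os07g0615200 (adjusted p 0.0277) and 0.34 for Os03g0402800 (adjusted p 0.0226).

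Beside these stand the levels of the non-infested B15 plants. Os10g0392400 averaged 80.3 ± 14.3 CPM in B15_0 and 34.2 ± 4.19 CPM in RP_0, and 81.1 ± 15.9 CPM in B15_late and 76.4 ± 9.50 CPM in RP_late (SD, n = 3). OsMYC2 averaged 64.1 ± 0.967 CPM in B15_0 and 51.1 ± 1.24 CPM in RP_0, and 60.4 ± 6.67 CPM in B15_late and 65.4 ± 3.84 CPM in RP_late. The summed CPM of the green tissue markers was 8620 to 10500 in B15_0, against 5380 to 5680 in RP_0, and its part in these differences was not tested. The call of Os07g0615200 was lost when any of 7 of the 12 libraries was left out (edgeR, adjusted p 0.0504 to 0.0888), and that of Os03g0402800 without B15_0-1 or RP_0-2 (0.0573 and 0.0608).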

How the results depend on the processing

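DESeq2's size factors changed none of the 107 calls among 270 pairs of a gene and a comparison, and no direction of a called value turned except one. With RP_0 as the baseline, Os03g0181100 in B15_late had 0.15 in place of -0.95. The study's DEG definition gave 17 calls in place of 26 early, 11 in place of 26 late, 4 in place of 21 between late and early, 2 in place of 10 for NILs before feeding, 0 in place of 17 early and 0 in place of 2 late, and 2 in place of 5 in the late interaction. A single fit of 36 libraries gave 11 and 1 for NILs against RP at the early and late stages. For the late NIL comparisons, the replicate block gave 5 and leaving out both late libraries in doubt (labelled B15_late-3 and, in B1415, B1415_late-3) gave 4. In the early interaction, 3 passed without the filter and 2 by DESeq2. When single libraries were left out, the counts ranged from 23 to 30 early, 24 to 27 late, 18 to 27 between late and early, 10 to 13, 13 to 19 and 0 to 4 for NILs against RP before feeding, early and late, and 0 to 2 and 3 to 7 for the early and late interactions. Over all pairs, the replicate block lost 8 calls and gained 7. Depth limits Os03g0180800 and Os10g0391400 in non-infested plants. Promoter motifs (G-box) were not analysed here.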
